A study of Homo sapiens with 24 samples.

Results

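The respiratory chain subunits were followed in human neuroblastoma cells exposed to GSK-J4, a cell-permeable inhibitor of the histone demethylases KDM6A and KDM6B, which take methyl groups off lysine 27 in histone H3. The members were the 13 mRNAs and 2 rRNAs of mitochondrial DNA, chosen by Ensembl identifier, and 83 nuclear genes, chosen by symbol patterns for the subunits of complexes I to V (NDUFA, NDUFB, NDUFC, NDUFS and NDUFV genes, SDHA to SDHD, UQCR genes, COX4 to COX8 genes and ATP5 genes). Together they are 98 of the 39772 genes listed in the authors' deposited tables. The nuclear members comprise 38 genes of complex I, 4 of complex II, 9 of complex III, 16 of complex IV and 16 of complex V. NDUFA4, which is known as a subunit of complex IV, and its relative NDUFA4L2 are counted under complex I by their symbols. Another 4 pseudogenes, 3 antisense RNAs, 1 read-through gene and the 2 genes ATP5S and ATP5SL match the symbol patterns and were not counted.

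The study sequenced polyadenylated RNA in 24 libraries, 3 in each of 8 groups, and the submitters deposited 1 comparison table per cell line. In each of 4 lines, 3 libraries came from cells given 1 µM GSK-J4 for 72 hours and 3 from untreated cells: LAN5 (labelled MYCN-amplified and sensitive to the compound), IMR5 (amplified and sensitive), SK-N-FI (not amplified and sensitive) and SK-N-BE(2) (amplified and resistant). Each line is 1 established culture, the labels do not say whether the 3 libraries of a group came from separate cultures, and p-values then measure the spread between libraries, which may be technical. The tables give a mean normalized count over the libraries of a line, a log2 fold change with its standard error and an adjusted p, and no value per library.

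The respiratory chain passes electrons from NADH (complex I) and succinate (complex II) through complex III to oxygen (complex IV), and the proton gradient built on the way drives ATP synthase (complex V). Its core is assembled from parts of both genomes: mitochondrial DNA encodes membrane subunits of complexes I, III, IV and V, the nucleus encodes all other subunits and the whole of complex II. Mitochondrial DNA is transcribed from either strand as long transcripts that are cut into single RNAs, and on the heavy-strand transcript both rRNAs lie nearest the promoter, followed by MT-ND1 and MT-ND2. MT-ND6 is the only mRNA of the light-strand transcript. In neuroblastoma, MYCN is known to drive many genes of mitochondrial metabolism.

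Fold changes are read as GSK-J4 over untreated because BBC3, which the compound is known to induce, is at 2.62 (LAN5), 3.31 (IMR5) and 1.88 (SK-N-FI) on the log2 scale of the authors' deposited tables. BBC3 was at -0.01 ± 0.0723 in SK-N-BE(2) and does not give its direction. For that line it was read from the metal-response genes MT2A and SLC30A1, at 1.47 and 0.57. These were at 6.60 and 3.84 in LAN5, 7.19 and 3.03 in IMR5, and 4.96 and 2.83 in SK-N-FI. That they move the same way in SK-N-BE(2) was assumed. The SK-N-FI table was matched to its line by a near spelling and by elimination. Of 9 neuroblastoma markers looked up, all 9 in LAN5 and 8 in each other line had an adjusted p and a mean of at least 100. CHGA, a marker from that list and a protein of neuroendocrine secretory granules, had mean normalized counts, per the authors' deposited tables, of 1452 in IMR5, 5740.1 in SK-N-FI, 3511 in LAN5 and 8802 in SK-N-BE(2). Genes with an adjusted p under 0.05 are named as called. The fold changes deposited for SK-N-BE(2) were shrunken most, so lines were compared on values from which the shrinkage was removed, called prior-removed. Derived group means are the deposited mean split by the prior-removed fold change and carry no error of their own.

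The level of the mitochondrial mRNAs stood far above that of the nuclear subunits. Per kilobase of exon, their mean normalized counts in the authors' deposited tables ran between 25057 (MT-ND6) and 162859 (MT-ATP8) in LAN5, while the highest nuclear subunit, ATP5B, the catalytic beta subunit of ATP synthase, reached 3727. In SK-N-FI the range was 13793 (MT-ND6) to 86254 (MT-CO1), against 5468 for ATP5B. The libraries were made by poly(A) capture, so these are levels of captured RNA, and in human mitochondria the rRNAs and MT-ND6 are known to carry short tails or none.

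In SK-N-FI, the sensitive line without MYCN amplification, 14.8% of all tested genes were called lower, and 24.1% of those whose mean reached 100. All 13 mitochondrial mRNAs fell there. The deepest falls were in the genes of the catalytic core of complex IV. MT-CO1 (chrM:5904-7445, ENSG00000198804) had a derived mean of 40787 normalized counts under GSK-J4 against 225219 in untreated cells. MT-CO2 (chrM:7586-8269) had derived means of 12900 under GSK-J4 and 74260 in untreated cells, and MT-CO3 (chrM:9207-9990) had 13358 under GSK-J4 and 78501 in untreated cells. Treated and untreated levels of these 3 mRNAs thus lay far apart, with log2 changes of -2.43 to -2.50 in the authors' deposited table.

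MT-ND5 and MT-CYB, a membrane subunit of complex I and the cytochrome b of complex III, were close behind, at -2.38 ± 0.11 and -2.18 ± 0.105 on the log2 scale of the authors' deposited table for SK-N-FI. The overlapping genes of ATP synthase, MT-ATP8 and MT-ATP6, fell by 1.99 ± 0.115 and 1.67 ± 0.142 in that deposited table, again on the log2 scale. Of the other complex I genes, MT-ND4L fell by 1.86 ± 0.145, MT-ND4 by 1.51 ± 0.0979 and MT-ND3 by 1.49 ± 0.153 in the authors' deposited table. MT-ND6 had a log2 change of -1.93 ± 0.17. The smallest changes were those of the 2 mRNAs next to the rRNAs, MT-ND2 with -0.95 ± 0.102 (adjusted p = 1.1e-18) and MT-ND1 with -0.78 ± 0.101 (adjusted p = 6.36e-13) in the authors' deposited table.

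Both rRNAs, the RNA scaffolds of the mitochondrial ribosome, rose in SK-N-FI, a direction in which 16.8% of all tested genes were called. Of those whose mean reached 100, 25.0% were called higher. MT-RNR1 (chrM:648-1601), the rRNA of the small ribosomal subunit, had a derived mean of 15922 normalized counts under GSK-J4 against 8554 in untreated cells, and its log2 change in the authors' deposited table was 0.88 ± 0.121 (adjusted p = 1.05e-11). MT-RNR2 (chrM:1671-3229), the rRNA of the large subunit, had derived means of 138451 under GSK-J4 and 96209 in untreated cells, with 0.51 ± 0.124 (adjusted p = 0.000225) in the deposited table. The captured rRNAs and mRNAs of the same heavy-strand transcript therefore moved in opposite directions in this line. After poly(A) capture, a change of total rRNA and a change of its tails cannot be told apart.

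**Figure D1:**
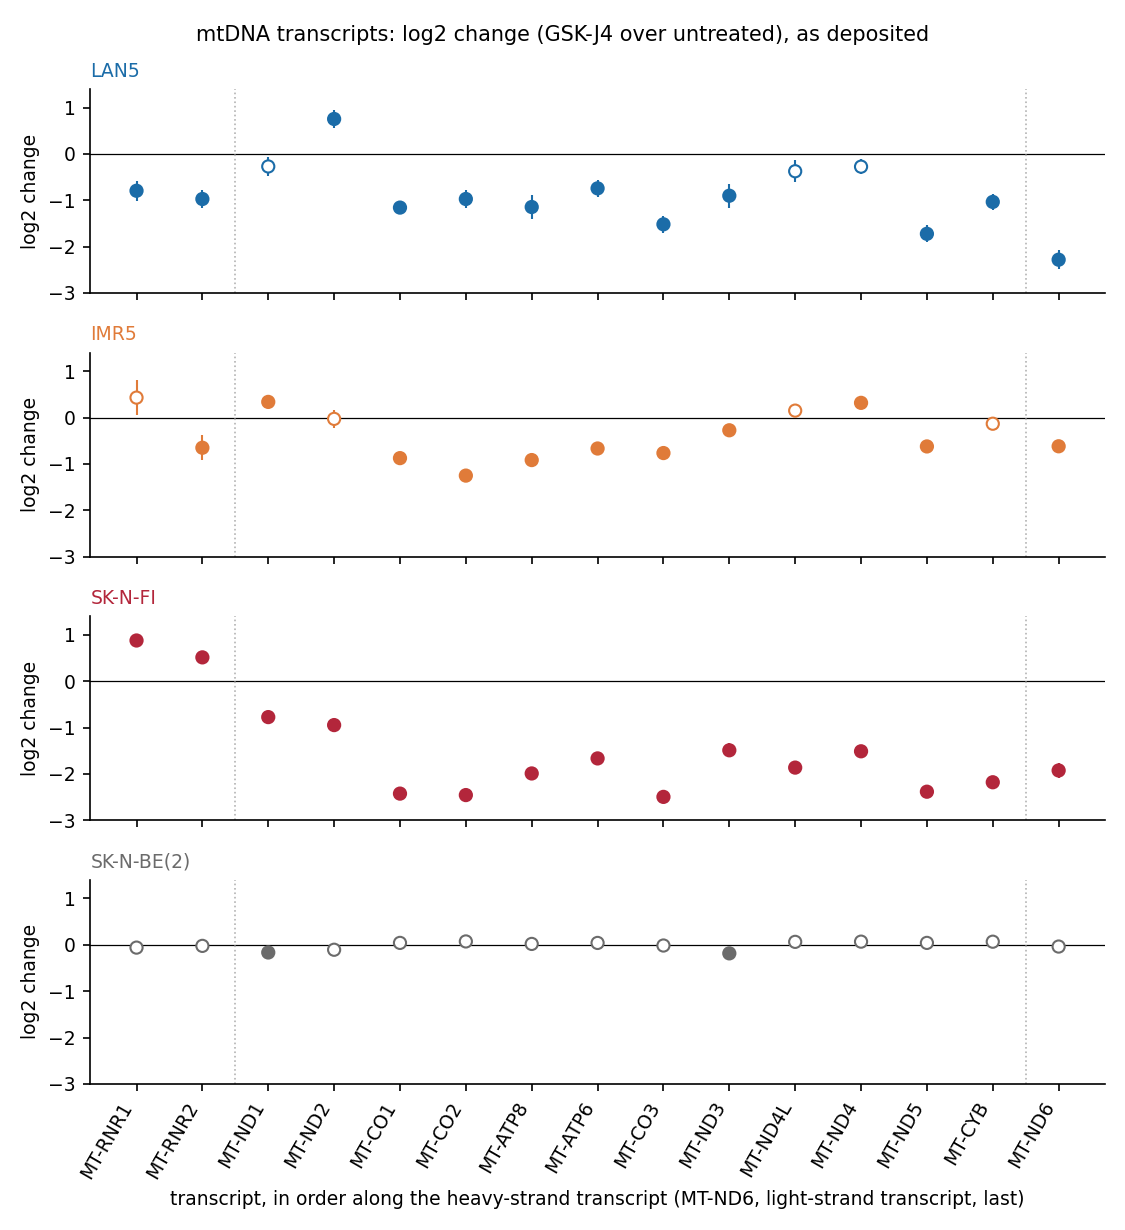
Log2 change (GSK-J4 over untreated) of the 15 transcripts of mitochondrial DNA in the authors' deposited tables, 1 panel per line, in order along the heavy-strand transcript with MT-ND6 of the light strand last. Bars are standard errors, filled points were called at an adjusted p under 0.05, and dotted lines separate rRNAs, heavy-strand mRNAs and MT-ND6; SK-N-FI has both rRNAs above 0 and all mRNAs below it.

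In LAN5, 19.2% of all tested genes were called lower and 22.5% higher, and 38.9% and 28.2% of those whose mean reached 100. Of the 13 mRNAs, 9 fell and 1 rose. MT-ND6 fell most, with derived means of 4250 under GSK-J4 and 22060 in untreated cells and, in the authors' deposited table, a log2 change of -2.28 ± 0.209 (adjusted p = 1.56e-26). MT-ND5 fell by 1.72 ± 0.183 and MT-CO3 fell by 1.52 ± 0.182 on the log2 scale. MT-CO1, MT-ATP8, MT-CYB, MT-CO2, MT-ND3 and MT-ATP6 had log2 changes between -1.16 and -0.74 in the authors' deposited table, all called. The mRNA that rose was MT-ND2, by 0.75 ± 0.204 (adjusted p = 0.000773). MT-ND1 (-0.27 ± 0.205), MT-ND4L (-0.37 ± 0.233) and MT-ND4 (-0.28 ± 0.163) were not called. Unlike in SK-N-FI, both rRNAs fell, with -0.80 ± 0.215 for MT-RNR1 and -0.97 ± 0.186 for MT-RNR2 in the authors' deposited table.

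The standard errors of the mitochondrial mRNAs in LAN5, 0.149 to 0.267, were above the median of 0.0726 over all genes of that table whose mean reached 1000. In IMR5 the range was 0.0553 to 0.194 around a median of 0.0747 for such genes, and in SK-N-FI 0.0979 to 0.170 around 0.109. The errors of LAN5 thus stood furthest above those of other abundant genes, and which library carried this spread cannot be read from the tables.

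In IMR5, 21.6% of all tested genes were called lower and 22.6% higher, and 35.7% and 33.97% of those whose mean reached 100. Of the 13 mRNAs, 8 fell and 2 rose. MT-CO2 fell most: its derived means were 40384 under GSK-J4 and 96535 in untreated cells, with a change in the authors' deposited table of -1.25 ± 0.0558 on the log2 scale (adjusted p = 3.72e-109). MT-ATP8, MT-CO1, MT-CO3, MT-ATP6, MT-ND5, MT-ND6 and MT-ND3 also fell, with log2 changes of -0.92 to -0.27. The mRNAs that rose were MT-ND1, by 0.34 ± 0.101 (adjusted p = 0.0026), and MT-ND4, by 0.32 ± 0.0553 (adjusted p = 5.76e-08). MT-ND2, MT-ND4L and MT-CYB were not called, at -0.03, 0.15 and -0.13 in the authors' deposited table. The subunit genes of complexes IV and V thus fell together, while the 7 genes of complex I split into 3 that fell, 2 that rose and 2 not called. Of the rRNAs, MT-RNR2 fell by 0.65 ± 0.271 (adjusted p = 0.0377, no longer called when p-values were adjusted over every gene with a p), and MT-RNR1 was not called at 0.43 ± 0.377 (adjusted p = 0.39).

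In SK-N-BE(2), the line labelled resistant, 2 of the 13 mRNAs were called lower and none higher, against 0.858% and 1.62% of all tested genes. Of those whose mean reached 100, 1.02% were called lower and 1.86% higher. MT-ND1 had derived means of 47618 under GSK-J4 and 53644 in untreated cells, with a log2 change of -0.16 ± 0.0327 (adjusted p = 9.19e-05). MT-ND3 changed by -0.18 ± 0.0477 (adjusted p = 0.00916) in the authors' deposited table. The other 11 lay between -0.11 and 0.07, and neither rRNA was called, with -0.06 ± 0.0826 for MT-RNR1 and -0.02 ± 0.0379 for MT-RNR2. The error of MT-RNR1 lies just under the largest error of the table, 0.0828, so the equations behind its prior-removed value allow another solution and that value is uncertain. The score of that table also departs from fold change over error by up to 1.33, so that table may not have been produced like the rest.

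Across the sensitive lines, 8 of the 13 mRNAs fell in all 3, against 10.4% of the 9202 genes tested in these lines with a mean of at least 100 in each: MT-CO1, MT-CO2, MT-CO3, MT-ATP8, MT-ATP6, MT-ND3, MT-ND5 and MT-ND6. MT-CYB fell in LAN5 and SK-N-FI, and MT-ND1, MT-ND2, MT-ND4L and MT-ND4 in SK-N-FI alone of the 3. Every mitochondrial subunit gene of complexes IV and V thus fell in each sensitive line.

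Position along the heavy-strand transcript was compared with the size of the change. MT-ND1 and MT-ND2, next to the rRNAs, had log2 changes of -0.95 to -0.78 in SK-N-FI, while the 10 other heavy-strand mRNAs ran between -2.50 and -1.49, all 10 below both. In LAN5, MT-ND1 and MT-ND2 had -0.27 and 0.75, and the other 10 ran between -1.72 and -0.28. There MT-ND1 and MT-ND4 lay closer together than their standard errors of 0.205 and 0.163, so their order is not resolved. In IMR5 the pair had -0.03 to 0.34 and the others -1.25 to 0.32, with 8 of the 10 below both. In SK-N-BE(2) the pair had -0.16 to -0.11 and the others -0.18 to 0.07, with 1 of the 10 below both, so the order was not that of SK-N-FI. Within the other 10 the change did not follow position: MT-ND4L and MT-ND4 were less reduced than MT-CO3 on their promoter side and MT-ND5 beyond them in each sensitive line, in the authors' deposited tables. These mRNAs share libraries and precursor, and the positions are given as a description.

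Neighbouring members share sequence, which limits how far they can be told apart. The reading frames of MT-ATP8 and MT-ATP6 overlap by 46 bases, shown here as the stretch that both genes claim, with the start codon of MT-ATP6 and the stop codon of MT-ATP8 in capitals (GENCODE release 29, GRCh38, chrM:8527-8572, plus strand).
MT-ATP8/MT-ATP6: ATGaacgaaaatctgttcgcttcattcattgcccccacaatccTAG
MT-ND4L and MT-ND4 overlap by 7 bases, in capitals at the end of the 30 bases printed (chrM:10737-10766, plus strand).
MT-ND4L/MT-ND4: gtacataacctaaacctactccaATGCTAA
Each pair is carried by 1 mRNA in human mitochondria. In the authors' deposited tables the log2 changes of MT-ATP8 and MT-ATP6 were -1.99 and -1.67 in SK-N-FI, -1.15 and -0.74 in LAN5, and -0.92 and -0.67 in IMR5. Those of MT-ND4L and MT-ND4 were -0.37 and -0.28 in LAN5, 0.15 and 0.32 in IMR5, and -1.86 and -1.51 in SK-N-FI, so members of a pair lay near each other in every sensitive line. How reads in the overlaps were counted is not given in the sources used here.

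Nuclear copies of mitochondrial DNA are near-identical to their sources, and reads can be split between them. MTCO1P12, a copy of MT-CO1, changed by -2.23 in SK-N-FI, -0.79 in LAN5 and -0.78 in IMR5 on the log2 scale of the authors' deposited tables, beside -2.43, -1.16 and -0.88 for MT-CO1 itself. MTATP6P1 had -1.62, -0.81 and -0.65 in these lines, beside -1.67, -0.74 and -0.67 for MT-ATP6. Of the tested copies, 5 of 13 fell and none rose in SK-N-FI, 4 of 13 fell and 1 rose in LAN5, and 4 of 12 fell and none rose in IMR5. Of all tested genes, 14.8% were called lower and 16.8% higher in SK-N-FI, 19.2% and 22.5% in LAN5, and 21.6% and 22.6% in IMR5. Whether these counts come from the copies or from mitochondrial reads was not tested.

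The summed levels show the size of these changes against the whole library. Derived from deposited means and prior-removed folds, the 13 mRNAs made up 1.36% of all normalized counts under GSK-J4 and 5.24% in untreated cells in SK-N-FI, a ratio of 0.258. In LAN5 they made up 4.66% under GSK-J4 and 6.75% in untreated cells, and in IMR5 3.69% under GSK-J4 and 4.71% in untreated cells. In SK-N-BE(2) the shares were 5.18% under GSK-J4 and 5.17% in untreated cells, so treated and untreated cells had nearly equal sums there. The rRNAs moved apart from the mRNAs in SK-N-FI, with 0.964% under GSK-J4 against 0.648% in untreated cells, and with them in LAN5, with 1.04% under GSK-J4 against 1.84% in untreated cells. The sums of the nuclear subunits lay closer together. They made up 0.598% under GSK-J4 and 0.553% in untreated cells of SK-N-FI, and 0.586% under GSK-J4 and 0.664% in untreated cells of LAN5. In IMR5 they held 0.606% under GSK-J4 and 0.616% in untreated cells, and in SK-N-BE(2) 0.720% under GSK-J4 and 0.734% in untreated cells. In RNA from whole cultures, fewer transcripts per cell and fewer mitochondria or cells of a kind cannot be told apart. For RNA captured by poly(A), a change in level and a change in tails cannot be told apart either.

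**Figure D2:**
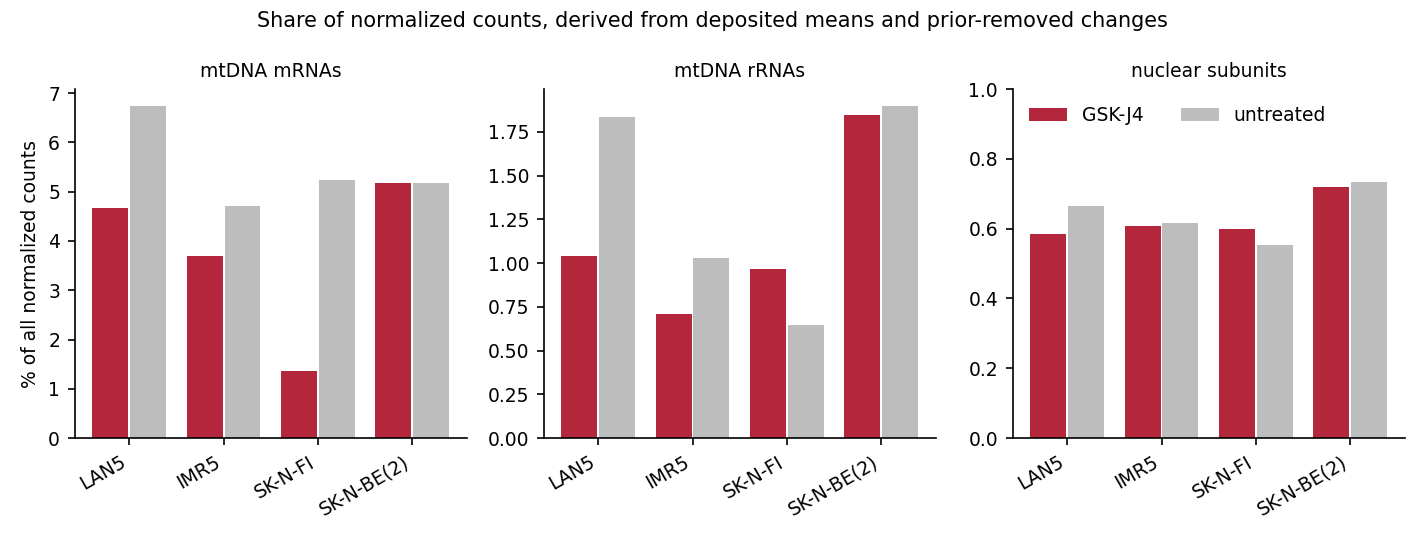
Share of all normalized counts (percent) held by the mitochondrial mRNAs, the mitochondrial rRNAs and the nuclear subunits in GSK-J4 (left bar) and untreated cells (right bar) of each line, derived from the authors' deposited means and prior-removed folds. No error can be given for these shares; the mRNA share falls to 1.36% under GSK-J4 in SK-N-FI, against 5.24% in untreated cells.

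The lines were compared directly by the difference of their prior-removed log2 changes, with a Wald test across the 8969 genes whose mean reached 100 in each of the 4 tables. For SK-N-FI minus the mean of LAN5 and IMR5, 18.9% of all genes were called lower and 28.4% higher. All 13 mitochondrial mRNAs were called lower, with a median difference of -1.34 and a range of -1.80 (MT-ND4L) to -0.51 (MT-ND6) on the log2 scale. MT-ND4L changed by -1.92 in SK-N-FI and by -0.12 on average in LAN5 and IMR5, and MT-CYB by -2.22 in SK-N-FI and -0.60 in the amplified lines. Both rRNAs went the other way, with differences of 1.05 ± 0.284 for MT-RNR1 (adjusted p = 0.000879) and 1.38 ± 0.217 for MT-RNR2 (adjusted p = 2.48e-09). Set against single lines, a comparison added after the values were seen, all 13 mRNAs were called lower in SK-N-FI minus IMR5 and 10 in SK-N-FI minus LAN5. The other 3 in that second contrast were MT-ND1 (-0.50 ± 0.236), MT-ND3 (-0.58 ± 0.320) and MT-ND6, whose difference from LAN5 turned to 0.37 ± 0.281 (adjusted p = 0.272). MT-RNR2 was called higher against either line, while MT-RNR1 was called against LAN5 (1.73 ± 0.256) and not against IMR5 (0.37 ± 0.477). No share of all genes is given for these single-line contrasts, so their counts cannot be set against one. SK-N-FI differs from these lines in more than MYCN status, and which difference goes with these values cannot be told apart.

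**Figure D3:**
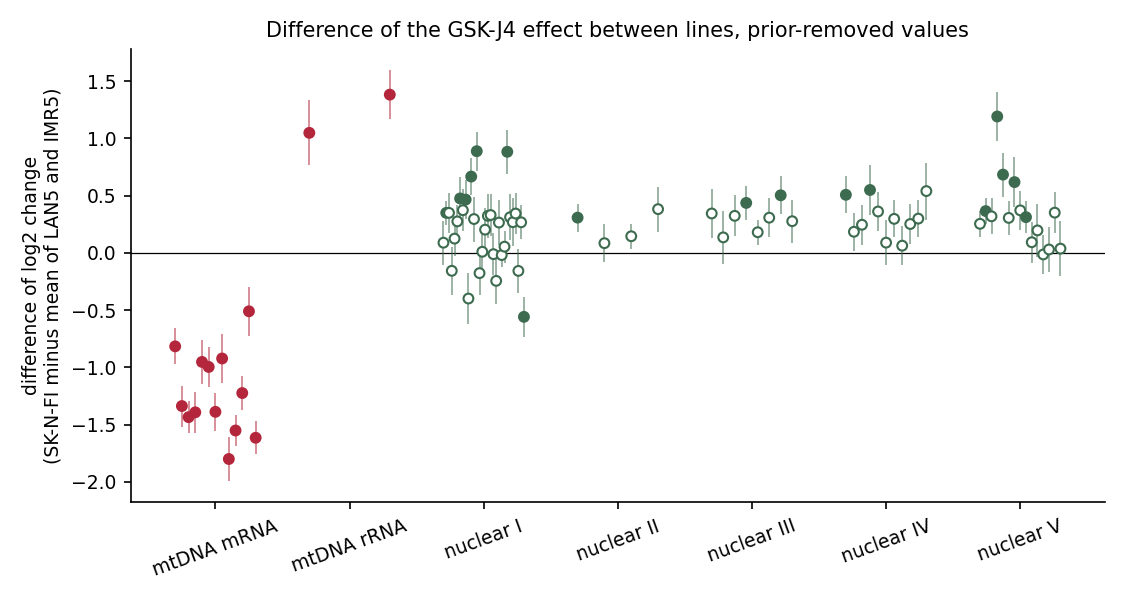
Difference of the prior-removed log2 change (SK-N-FI minus the mean of LAN5 and IMR5) for each member by genome and complex. Bars are standard errors and filled points were called at an adjusted p under 0.05; the mitochondrial mRNAs lie between -1.80 and -0.51, the rRNAs above 1.0 and most nuclear subunits slightly above 0.

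For the mean of the 3 sensitive lines minus SK-N-BE(2), 32.7% of all genes were called lower and 26.4% higher. Of the mitochondrial mRNAs, 11 of 13 were called lower and none higher. The largest difference was that of MT-CO2, -1.67 ± 0.0938 (adjusted p = 4.44e-69), followed by MT-ND5 with -1.65 ± 0.0836 (adjusted p = 9.85e-85). MT-ND1, at -0.07 ± 0.0923 (adjusted p = 0.524), and MT-ND2, at 0.04 ± 0.111 (adjusted p = 0.765), were not called. For both the mean covers lines that moved apart: MT-ND2 was called higher in LAN5 minus SK-N-BE(2), at 0.89 ± 0.215, and MT-ND1 in IMR5 minus SK-N-BE(2), at 0.51 ± 0.108. MT-RNR2 was called lower at -0.37 ± 0.131, and MT-RNR1 was not called at 0.31 ± 0.234.

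For LAN5 minus IMR5, 33.6% of all genes were called lower and 27.3% higher. Among the mitochondrial mRNAs 7 of 13 were called lower and 1 higher, MT-ND2 (0.81 ± 0.293). MT-ND6 differed most, changing by -2.38 in LAN5 and -0.62 in IMR5, a difference of -1.75 ± 0.23 (adjusted p = 2.42e-13). MT-CO1, MT-CO2, MT-ATP8 and MT-ATP6 were not called in this contrast, with differences of -0.30 to 0.25. Of the 5 mRNAs of complexes IV and V, MT-CO3 alone was called, and of the 7 of complex I, 5 were called lower and 1 higher.

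Among the nuclear subunits the direction depended on the line. In LAN5, 44 of 80 tested fell and 2 rose, with a median log2 change of -0.32, beside 0.09 for all tested genes. In IMR5, 29 of 81 fell and 14 rose, with a median of -0.11 beside 0.02 for all tested genes. SK-N-FI had 6 of 79 lower and 10 higher, with a median of 0.03 beside 0.01. In SK-N-BE(2) none of 73 was called by the authors' DESeq2 test, 2 had an unadjusted p under 0.05 and the smallest adjusted p was 0.211. Nuclear subunits are well-expressed genes, and among all LAN5 genes whose mean reached 100, 38.9% were called lower and 28.2% higher. On that footing, 44 of 69 nuclear members fell and 2 rose in LAN5, 29 of 72 fell and 12 rose in IMR5 (35.7% and 33.97% of all such genes), and 6 of 70 fell and 9 rose in SK-N-FI (24.1% and 25.0%). Both counts in SK-N-FI thus lay below the share of all such genes, and the count of falls in LAN5 above it. The median standard error of the tested nuclear subunits was 0.163 in SK-N-FI, 0.104 in LAN5 and 0.0895 in IMR5. Fewer calls in SK-N-FI therefore need not mean smaller changes.

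**Figure D4:**
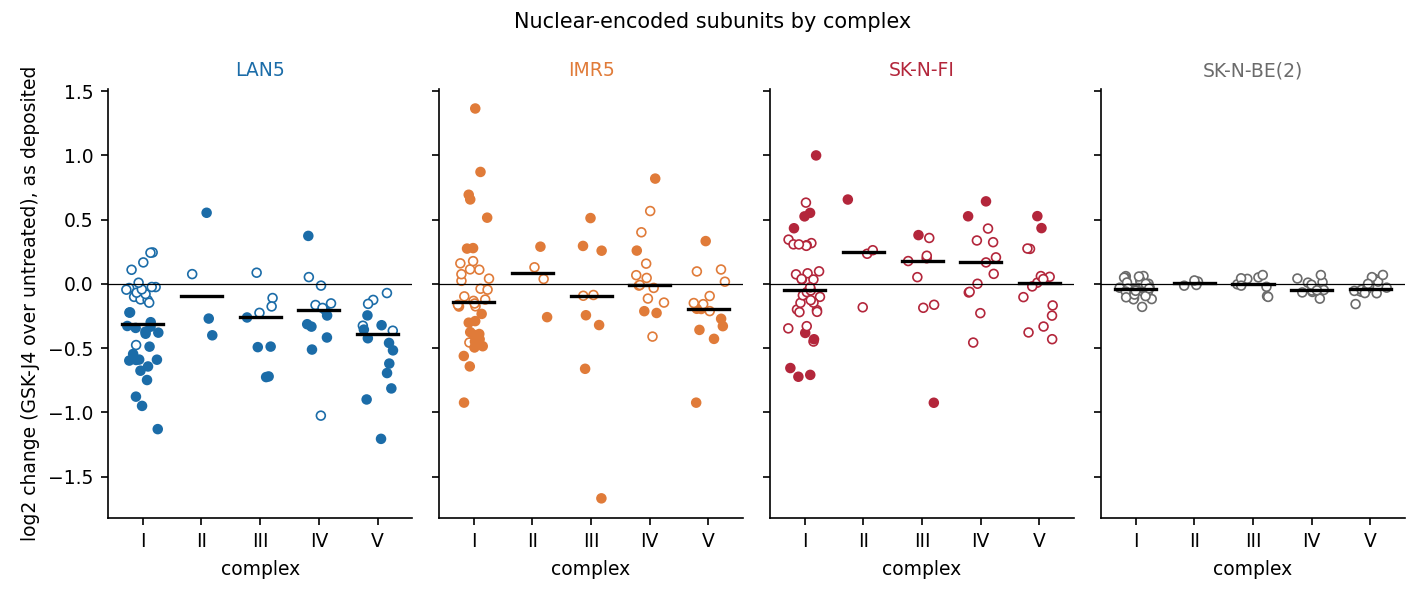
Log2 change (GSK-J4 over untreated) of the tested nuclear subunits by complex in the authors' deposited tables, 1 panel per line. Points are genes, filled where called at an adjusted p under 0.05, and black lines are medians; in LAN5 the medians of all complexes lie below 0, and in SK-N-BE(2) no point is filled.

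Complex I, the NADH dehydrogenase, had 20 of its 38 nuclear genes lower and none higher in LAN5, 15 lower and 7 higher in IMR5, and 5 lower and 4 higher in SK-N-FI. Of all genes whose mean reached 100, 38.9% fell and 28.2% rose in LAN5, and 35.7% and 33.97% in IMR5. In SK-N-FI the shares were 24.1% and 25.0%. The falls of complex I in IMR5, 39.5% of its tested genes, were near the share of all such genes. NDUFB10 (chr16:1959508-1961975), an accessory subunit of the membrane arm, had derived means of 578 under GSK-J4 and 1274 in untreated LAN5 cells, and the log2 change was -1.13 ± 0.104 (adjusted p = 5.5e-26), per the authors' deposited table. It also fell in IMR5, by 0.49 ± 0.086. NDUFC2, another membrane arm subunit, fell most in IMR5, with -0.92 ± 0.144 (adjusted p = 9.34e-10), and was not called in LAN5 at -0.04 ± 0.144. The read-through gene NDUFC2-KCTD14 overlaps NDUFC2 on the same strand, so some of its reads may belong there. NDUFV2, a subunit of the NADH-binding module, rose in IMR5 by 1.36 ± 0.214 (adjusted p = 1.27e-09) per the authors' deposited table. Its mean was only 114 in IMR5 and 16.9, 28.5 and 8.74 in LAN5, SK-N-FI and SK-N-BE(2), and genes on both strands overlap it, the antisense RNA NDUFV2-AS1 among them, so its counts are uncertain.

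NDUFB1, a membrane arm subunit, was 1 of the 2 nuclear members that fell in all 3 sensitive lines, or 2.94% of 68 with a mean of at least 100 in each, beside 10.4% of all such genes. Its derived means were 582 under GSK-J4 and 735 in untreated LAN5 cells, 454 under GSK-J4 and 598 in untreated IMR5 cells, and 91.4 under GSK-J4 and 155 in untreated SK-N-FI cells. The log2 changes were -0.33 ± 0.117, -0.39 ± 0.115 and -0.72 ± 0.195 in the authors' deposited tables for these lines, and -0.18 ± 0.07 (adjusted p = 0.211) for SK-N-BE(2). The fall in LAN5 (adjusted p = 0.0128) was not called at an adjusted p under 0.01 or after recentring on the median change, which ends the pattern over 3 lines. NDUFS7, an iron-sulfur subunit next to the quinone site, fell by 0.59 ± 0.167 in LAN5 and rose by 0.69 ± 0.191 in IMR5 in the authors' deposited tables.

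Complex II, succinate dehydrogenase, has no mitochondrially encoded subunit. SDHD, a membrane anchor, rose in LAN5 by 0.55 ± 0.134 (adjusted p = 0.000147) and in SK-N-FI by 0.66 ± 0.167 (adjusted p = 0.000551), and was at 0.04 ± 0.122 in IMR5 in the authors' deposited tables. A protein-coding gene on the same strand overlaps SDHD, so some of its reads may belong there. The other anchor, SDHC, fell in LAN5 by 0.40 ± 0.0702 and in IMR5 by 0.26 ± 0.0618, and was not called in SK-N-FI at -0.18 ± 0.099. SDHA, the flavoprotein, fell in LAN5 by 0.27 ± 0.0757 and was not called at 0.13 in IMR5 and 0.23 in SK-N-FI. SDHB, the iron-sulfur subunit, rose in IMR5 by 0.29 ± 0.0804 and was not called at 0.08 in LAN5 and 0.26 in SK-N-FI. In SK-N-BE(2) the 4 genes lay between -0.01 and 0.03 in the authors' deposited table. The genes of a single complex thus did not move together.

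Complex III, the cytochrome bc1 complex, had 5 of 9 nuclear genes lower and none higher in LAN5, 4 lower and 3 higher in IMR5, and 1 of each in SK-N-FI. The IMR5 counts, 44.4% lower and 33.3% higher, were near the 35.7% and 33.97% of all genes whose mean reached 100. In LAN5 55.6% fell, beside 38.9% of such genes. In SK-N-FI 11.1% fell and 11.1% rose, beside 24.1% and 25.0%. UQCR11 (chr19:1597172-1605490), the smallest subunit of complex III, was the other nuclear member that fell in all 3 sensitive lines. It had derived means of 69.6 under GSK-J4 and 229.6 in untreated IMR5 cells, 151 under GSK-J4 and 298 in untreated SK-N-FI cells, and 133 under GSK-J4 and 188 in untreated LAN5 cells. Its log2 changes were -1.67 ± 0.172 in IMR5 (adjusted p = 5.58e-21), -0.92 ± 0.189 in SK-N-FI and -0.49 ± 0.16 in LAN5, and -0.02 ± 0.0793 in SK-N-BE(2), in the authors' deposited tables. A protein-coding gene on the same strand overlaps it, so some of its reads may belong there.

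UQCRC1, a core protein of complex III, moved in opposite directions in the amplified lines. Its derived means were 1235 under GSK-J4 and 2039 in untreated LAN5 cells, and 1141 under GSK-J4 and 928 in untreated IMR5 cells, and the log2 changes in the authors' deposited tables were -0.72 ± 0.0736 in LAN5 and 0.30 ± 0.0836 in IMR5. UQCRB, the quinone-binding subunit, did likewise at -0.49 and 0.26. UQCRC2, the other core protein, rose in IMR5 by 0.51 ± 0.0866 and in SK-N-FI by 0.38 ± 0.0919 and was at -0.11 ± 0.0723 in LAN5. UQCR10 had the largest fall of the complex in LAN5, with -0.72 ± 0.212 in the authors' deposited table. UQCRH and its near-identical copy UQCRHL, which can share reads, were called in no line.

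Complex IV, cytochrome c oxidase, had 6 of 13 tested nuclear genes lower and 1 higher in LAN5, 2 of 15 lower and 2 higher in IMR5, and none lower and 2 of 13 higher in SK-N-FI. In LAN5 46.2% of these genes fell, beside 38.9% of all genes whose mean reached 100. In IMR5 13.3% fell and 13.3% rose, beside 35.7% and 33.97%, and in SK-N-FI 15.4% rose, beside 25.0%. The 3 mitochondrial genes of complex IV fell in all of these lines, by 0.77 to 2.50 on the log2 scale. COX7A2L (chr2:42333546-42425088), a COX7A-related protein that joins complex III and complex IV in supercomplexes, was the only nuclear member that rose in all 3 sensitive lines, as did 7.60% of all genes whose mean reached 100 in each. Its derived means were 1834 under GSK-J4 and 1414 in untreated LAN5 cells, 2604 under GSK-J4 and 1469.7 in untreated IMR5 cells, and 2953 under GSK-J4 and 1864 in untreated SK-N-FI cells. The log2 changes were 0.37 ± 0.0788, 0.82 ± 0.0832 and 0.64 ± 0.154 in the authors' deposited tables, and -0.05 ± 0.0531 in SK-N-BE(2). COX5B fell by 0.51 ± 0.108 in LAN5, and COX6B1 by 0.33 ± 0.0986 in LAN5 and 0.23 ± 0.0841 in IMR5.

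Complex V, ATP synthase, had 11 of 16 nuclear genes lower and none higher in LAN5, 7 of 15 lower and 1 higher in IMR5, and none lower and 2 of 15 higher in SK-N-FI. In LAN5 68.75% of these genes fell, beside 38.9% of all genes whose mean reached 100. In IMR5 46.7% fell and 6.67% rose, beside 35.7% and 33.97%, and in SK-N-FI 13.3% rose, beside 25.0%. The alpha subunit gene ATP5A1 fell by 0.81 ± 0.0623 in LAN5 (adjusted p = 2.24e-37) and was not called in IMR5 at 0.10 ± 0.0784 in the authors' deposited tables. ATP5D, the delta subunit of the catalytic head, fell in LAN5 by 0.90 ± 0.118 and in IMR5 by 0.36 ± 0.121 but rose in SK-N-FI by 0.53 ± 0.189 (adjusted p = 0.0202). Its derived means were 296 under GSK-J4 and 556 in untreated LAN5 cells, 270.1 under GSK-J4 and 347 in untreated IMR5 cells, and 293 under GSK-J4 and 199 in untreated SK-N-FI cells. The c subunit of the membrane rotor is encoded by 3 genes with the same mature protein. ATP5G1 fell most, by 1.21 ± 0.11 in LAN5 and 0.92 ± 0.0898 in IMR5. ATP5G2 fell by 0.52 ± 0.0888 in LAN5 and rose by 0.33 ± 0.114 in IMR5, and ATP5G3 was at -0.07 ± 0.0795 in LAN5 and fell by 0.43 ± 0.0727 in IMR5. None of the 3 was called in SK-N-FI, at -0.43, 0.27 and 0.06 in the authors' deposited table.

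The isoform pairs of the chain, in which a common and a tissue- or oxygen-dependent gene encode variants of 1 subunit, were dominated by the common gene. COX4I1 had means of 1351 to 2751 over the 4 tables and COX4I2 of 0.506 to 4.73, and COX6B2, COX7A1, COX8C and ATP5L2 stayed at a mean of 5.02 or less. COX7B2 has a value used here in SK-N-FI alone, with a mean of 6.18, and COX6A2 has none. NDUFA4 had means of 1332 to 2966 and NDUFA4L2, its hypoxia-induced relative, of 15.6 to 35.5. NDUFA4L2 rose in IMR5 by 0.87 ± 0.341 (adjusted p = 0.026) and in SK-N-FI by 1.00 ± 0.321 (adjusted p = 0.00809), while NDUFA4 fell in IMR5 by 0.29 ± 0.0747 and was at 0.03 ± 0.14 in SK-N-FI, per the authors' deposited tables. SHMT2 overlaps NDUFA4L2 on the opposite strand, and use of strand in counting is not given in the sources used here. Of the 83 nuclear members, 40 overlap a gene on the opposite strand and 31 one on the same strand in GENCODE release 29, so such doubt touches many of them.

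Across lines, 64 of the 83 nuclear members were called in at least 1 line and 19 in none. No share of all genes is given for that count. In LAN5 alone 22.5% of all tested genes were called higher and 19.2% lower, so a call in at least 1 line is common. LAN5 and IMR5 shared 21 that fell in both and 1 that rose in both, and 5 (ATP5G2, COX5A, NDUFS7, UQCRB and UQCRC1) fell in LAN5 and rose in IMR5. The opposite pattern was seen for none. Each of these members had a mean of at least 100 in both lines, where 69 nuclear members were tested. Of all 9882 genes at such levels, 21.98% fell in both lines, 14.997% rose in both, 6.63% fell in LAN5 and rose in IMR5, and 4.96% did the opposite. For the nuclear members the shares were 30.4% lower in both, 1.45% higher in both and 7.25% lower in LAN5 and higher in IMR5, the last near that of all genes. COX5A was not called in LAN5 at an adjusted p under 0.01. In the direct comparison, LAN5 minus IMR5, 27 of 68 tested nuclear members were called lower and 8 higher, beside 33.6% and 27.3% of all genes. The count called lower was thus near the share of all genes, and the count called higher below it. UQCRC1 had the lowest difference, with -0.72 in LAN5, 0.30 in IMR5 and a difference of -1.02 ± 0.112 (adjusted p = 1.4e-18). At the other end stood UQCR11, with -0.50 in LAN5, -1.72 in IMR5 and a difference of 1.22 ± 0.242 (adjusted p = 1.64e-06).

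**Figure D5:**
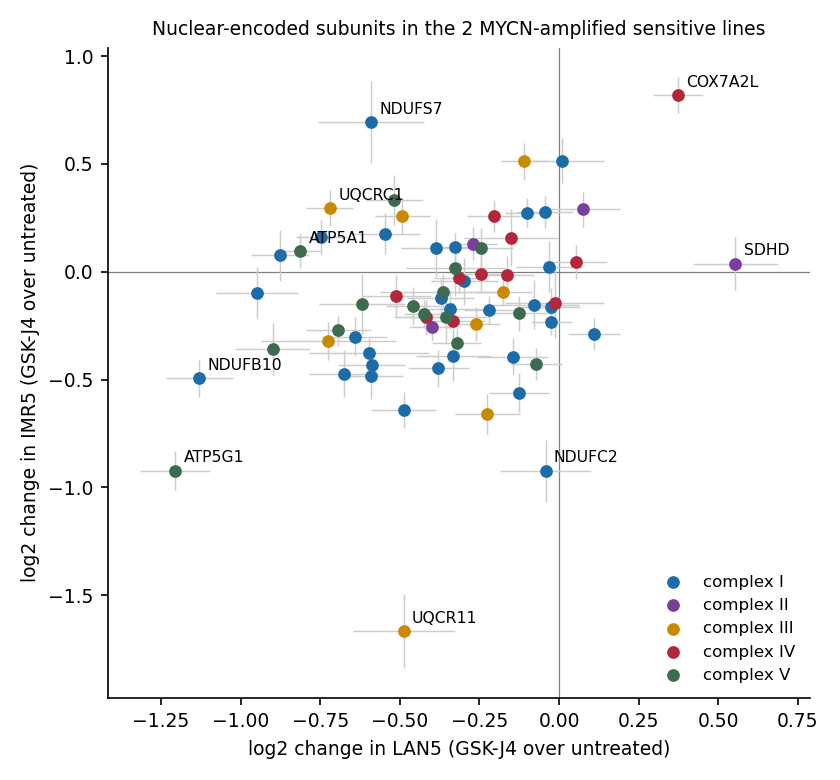
Log2 change (GSK-J4 over untreated) of 69 nuclear subunits with a mean of at least 100 in LAN5 (horizontal axis) and IMR5 (vertical axis), from the authors' deposited tables, coloured by complex, with standard errors as bars. Most points lie left of 0 for LAN5, while IMR5 has points on both sides of 0; COX7A2L lies above 0 on both axes and UQCR11 lowest in IMR5.

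For SK-N-FI minus the mean of LAN5 and IMR5, 16 of 68 nuclear members were called higher and 1 lower, below the 28.4% and 18.9% of all genes. This contrast had a median difference of 0.30 beside 0.08 over all genes. Against LAN5 alone 30 were called higher and against IMR5 alone 10, contrasts for which no share of all genes is given. In the contrast with the mean, the nuclear members ranked as follows. ATP5D differed most, with 0.56 in SK-N-FI, -0.64 on average in the amplified lines and a difference of 1.19 ± 0.217 (adjusted p = 3.86e-07). NDUFB2 and NDUFS3, a membrane arm and a quinone-module subunit, followed with 0.89 ± 0.172 and 0.88 ± 0.19. NDUFV3, a small NADH-module subunit, was the one called lower, with -0.73 in SK-N-FI, -0.17 in the amplified lines and a difference of -0.56 ± 0.173 (adjusted p = 0.00402).

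For the sensitive lines minus SK-N-BE(2), 25 of 68 nuclear members were called lower and 6 higher, beside 32.7% and 26.4% of all genes. UQCR11 (-1.03 ± 0.161) and ATP5G1 (-0.80 ± 0.111) had the lowest differences and COX7A2L (0.68 ± 0.0889, adjusted p = 2.99e-13) the highest. With SK-N-FI alone in place of the mean, 4 were called lower and 12 higher, and no share of all genes is given for that contrast. Over the 3 lines the count called lower was near the share of all genes and the count called higher was below it. No nuclear member was called in SK-N-BE(2) itself.

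The promoters of the 3 nuclear members with the same call in every sensitive line, NDUFB1 with the limit given for it in LAN5, are shown from RefSeq (GRCh38.p14), each from 250 bases before to 50 after the start, with matches to the searched motifs in capitals. The motifs, searched on both strands, were GCGC followed by any base and TGCGC for NRF1, CCGGAAG for the ETS family, which includes GABPA, and AAGGTCA for ESRRA. The stretches are chr2:42361168-42361467 for COX7A2L, chr14:92121657-92121956 for NDUFB1 and chr19:1605413-1605712 for UQCR11, all on the minus strand. The COX7A2L window was picked from 2 RefSeq starts by the number of GENCODE transcript starts nearby.
COX7A2L: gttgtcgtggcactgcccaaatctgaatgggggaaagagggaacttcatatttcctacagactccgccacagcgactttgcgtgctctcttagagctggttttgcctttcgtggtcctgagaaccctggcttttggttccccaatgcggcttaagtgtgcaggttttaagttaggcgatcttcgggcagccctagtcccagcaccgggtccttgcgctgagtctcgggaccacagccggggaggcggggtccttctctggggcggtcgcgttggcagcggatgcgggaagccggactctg
NDUFB1: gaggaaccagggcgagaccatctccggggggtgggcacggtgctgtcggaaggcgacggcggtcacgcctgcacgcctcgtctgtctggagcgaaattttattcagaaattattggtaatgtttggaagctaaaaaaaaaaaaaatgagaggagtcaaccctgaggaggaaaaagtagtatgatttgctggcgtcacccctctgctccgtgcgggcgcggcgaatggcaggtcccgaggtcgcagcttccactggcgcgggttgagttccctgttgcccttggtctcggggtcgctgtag
UQCR11: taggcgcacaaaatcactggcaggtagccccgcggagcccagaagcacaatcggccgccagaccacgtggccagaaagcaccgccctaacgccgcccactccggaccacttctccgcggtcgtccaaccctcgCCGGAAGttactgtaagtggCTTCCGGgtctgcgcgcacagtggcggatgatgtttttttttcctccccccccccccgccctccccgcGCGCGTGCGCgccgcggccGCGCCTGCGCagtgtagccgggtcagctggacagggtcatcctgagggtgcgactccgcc
UQCR11 held 2 matches to the NRF1 motif and 2 to the ETS motif, and these letters were not in the windows of COX7A2L and NDUFB1. RefSeq promoters were matched for 65 of the 83 nuclear members. The NRF1 motif was in 24.6% of them and in 6.93% of 27240 other genes, the ETS motif in 30.8% and 12.1%, and the ESRRA motif in 15.4% and 4.78%. NRF1, GABPA and ESRRA are transcription factors long known to act on respiratory chain genes. A match is a description of the letters and not a site.

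Genes that act on the chain from outside were followed from lists, most of them with means of at least 100. Among all genes at such levels 38.9% fell and 28.2% rose in LAN5, 35.7% fell and 33.97% rose in IMR5, and 24.1% fell and 25.0% rose in SK-N-FI. Of 12 regulators of mitochondrial biogenesis, 9 fell and none rose in LAN5, 5 fell and 5 rose in IMR5, and 1 fell and 2 rose in SK-N-FI. The IMR5 counts were near the share of all such genes, and in LAN5 the 75.0% that fell stood above it. NRF1 itself had a log2 change of -1.09 ± 0.0953 in LAN5, -0.46 ± 0.103 in IMR5 and 0.19 ± 0.131 (not called) in SK-N-FI, per the authors' deposited tables. PPARGC1B, a coactivator of these factors, fell most in LAN5, by 1.55 ± 0.306. PPARA, a lipid-sensing nuclear receptor, rose most in IMR5, by 1.20 ± 0.129, where HCFC1 fell most, by 0.89 ± 0.0667. ESRRA rose in SK-N-FI by 0.93 ± 0.133, where GABPA fell by 0.50 ± 0.111.

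Of 19 genes for transcription and replication of mitochondrial DNA, 8 fell and 1 rose in LAN5, 8 fell and 5 rose in IMR5, and 3 fell and 2 rose in SK-N-FI. The falls, 42.1% of the list in LAN5 and in IMR5, were near the share of all such genes. RRM2B, a p53-induced ribonucleotide reductase subunit that supplies nucleotides for mitochondrial DNA, rose by 2.36 ± 0.0768 in LAN5 and 2.04 ± 0.0791 in IMR5, and was not called in SK-N-FI at -0.17 ± 0.0979. TOP1MT, the mitochondrial topoisomerase, fell by 1.06 ± 0.117 in LAN5 and rose by 0.71 ± 0.135 in SK-N-FI. TFB2M, which opens the mitochondrial promoters, had the largest fall in IMR5, by 0.87 ± 0.0954, and MGME1, a mitochondrial exonuclease, that in SK-N-FI, by 0.63 ± 0.108. The polymerase gene POLRMT, which transcribes mitochondrial DNA, fell in LAN5 by 0.58 ± 0.106 and rose in IMR5 by 0.28 ± 0.0867 and in SK-N-FI by 0.32 ± 0.112; it was named after its values were seen.

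Of 20 genes for processing and decay of mitochondrial RNA, 12 fell and 2 rose in LAN5, 15 fell and none rose in IMR5, and 8 fell and 3 rose in SK-N-FI. The share of the list that fell was above that of all such genes in each of these lines. ELAC2, which cuts the 3' ends of mitochondrial tRNAs, fell most in LAN5, by 1.22 ± 0.0867. TRMT10C, a subunit of the enzyme for the 5' ends, fell most in SK-N-FI, by 0.61 ± 0.135. SUPV3L1, the helicase of the mitochondrial degradosome, rose most in SK-N-FI, by 0.39 ± 0.105. FASTKD5, needed for mRNAs that no tRNA flanks, rose by 0.40 ± 0.0883 in LAN5 and fell by 1.15 ± 0.102 in IMR5 in the authors' deposited tables.

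Assembly factors help to build the complexes without staying in them. Of 16 for complex I, 8 fell and 2 rose in LAN5, 8 fell and 1 rose in IMR5, and 6 fell and 2 rose in SK-N-FI, with NDUFAF3 lowest in SK-N-FI at -1.22 ± 0.181. ECSIT was the highest of these in IMR5 (0.53 ± 0.113) and SK-N-FI (0.91 ± 0.134), and NDUFAF7 in LAN5 (0.44 ± 0.102), where NDUFAF2 was lowest (-0.71 ± 0.226); NDUFAF1 was lowest in IMR5 (-0.63 ± 0.163). Of the 30 in the list for complexes III, IV and V, 13 fell and 1 rose in LAN5, 14 fell and 4 rose in IMR5, and 6 fell and 5 rose in SK-N-FI. That list also holds NUBPL, a complex I factor that stands in both lists and is 1 of the 6 that fell in SK-N-FI. The share that fell was 46.7% in IMR5, above that of all such genes, and 43.3% in LAN5, near it. COA3, needed for the synthesis of the first subunit of complex IV, fell most in LAN5, by 1.19 ± 0.108, and in SK-N-FI, by 0.72 ± 0.206. COA6, a copper chaperone for that complex, rose most in those lines, by 0.96 ± 0.144 and 0.90 ± 0.226. In IMR5 the extremes were COX10, a haem A synthesis enzyme, with a rise of 1.11 ± 0.116, and COX16 with a fall of 1.26 ± 0.272, in the authors' deposited tables.

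Of 6 further subunits and carriers that the symbol patterns miss, 4 fell in LAN5, 3 fell and 1 rose in IMR5, and 1 rose in SK-N-FI. CYC1, the cytochrome c1 of complex III, fell by 0.55 ± 0.0816 in LAN5 and rose by 0.31 ± 0.0767 in IMR5 and 0.44 ± 0.129 in SK-N-FI. CYCS, cytochrome c itself, fell most in IMR5, by 0.35 ± 0.0559. Of 14 genes of mitochondrial protein quality control, 8 fell and 4 rose in LAN5, 6 fell and 5 rose in IMR5, and 2 fell and 3 rose in SK-N-FI. The IMR5 shares of 42.9% lower and 35.7% higher were near those of all such genes. The matrix protease gene LONP1 rose most in LAN5 and IMR5, by 0.60 ± 0.0632 and 0.95 ± 0.0751, and the matrix chaperone gene HSPA9 in SK-N-FI, by 0.37 ± 0.0751. TRAP1 (LAN5, by 1.26 ± 0.088), HSPE1 (IMR5, by 0.92 ± 0.127) and OMA1 (SK-N-FI, by 0.60 ± 0.213) fell most.

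Targets of hypoxia-inducible factor that act on mitochondria or glycolysis were counted in the same way. Of those tested, 9 of 12 rose and 2 fell in SK-N-FI, 5 of 11 rose and 3 fell in LAN5, and 3 of 11 rose and 7 fell in IMR5. The rises were 75.0% of the list in SK-N-FI, 45.5% in LAN5 and 27.3% in IMR5, beside 25.0%, 28.2% and 33.97% of all such genes. Between lines, 9 genes of the list were tested. For SK-N-FI minus the mean of LAN5 and IMR5, 8 were called higher and 1 lower, beside 28.4% and 18.9% of all genes. LAN5 minus IMR5 also had 8 called higher and 1 lower, beside 27.3% and 33.6%. The sensitive lines minus SK-N-BE(2) had 5 higher and 2 lower, beside 26.4% and 32.7%. PFKFB3, a glycolytic regulator, rose by 4.74 ± 0.231 in SK-N-FI, and BNIP3, a mitophagy receptor, by 1.21 ± 0.0772 in LAN5. LDHA, the lactate-producing enzyme, fell by 1.48 ± 0.0949 in IMR5, where MXI1 rose by 0.96 ± 0.0995; SLC2A1 fell most in LAN5, by 0.88 ± 0.11, and PDK3 in SK-N-FI, by 0.58 ± 0.197. Most mitochondrial mRNAs fell in SK-N-FI and LAN5, where more of these targets rose than fell. Most also fell in IMR5, where more of the targets fell than rose. The part of the hypoxia targets in the change of the mitochondrial mRNAs was not tested.

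In SK-N-BE(2) the lists of regulators, transcription and replication, RNA processing, assembly, carriers, quality control and hypoxia targets held 1 called gene, EGLN3, an oxygen sensor, which fell by 0.24 ± 0.066 (adjusted p = 0.0174) in the authors' deposited table. Markers of the lines and of other cells moved as well. Of the tested neuroblastoma markers, 9 of 9 fell in LAN5, 5 of 8 fell and 2 rose in IMR5, 6 of 8 fell and 1 rose in SK-N-FI, and 6 of 9 fell in SK-N-BE(2). The largest falls in IMR5 and SK-N-BE(2) were those of CHGA (-1.14 ± 0.105) and TH (-0.59 ± 0.0524), per the authors' deposited tables. Fibroblast markers moved in both directions, with 2 of 6 higher and 3 lower in LAN5, 1 of 5 higher and 2 lower in IMR5, 2 of 6 higher and 2 lower in SK-N-FI, and 3 of 5 higher and 1 lower in SK-N-BE(2). Of the Schwann and glial markers 2 of 4 rose in LAN5, 1 of 3 in IMR5 and 1 of 4 in SK-N-FI, and none fell. Of all tested genes, 22.5% rose and 19.2% fell in LAN5, 22.6% and 21.6% in IMR5, 16.8% and 14.8% in SK-N-FI, and 1.62% and 0.858% in SK-N-BE(2). The immune marker PTPRC was near 0, with means of 0.552 to 2.27, and VWF was the only gene called among immune and endothelial markers, in LAN5. The part of such cell-state shifts in the values of the respiratory chain was not tested.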

How the data were processed

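Libraries came from a kit that captures mRNA and keeps its strand, per the labels' protocols. The authors used FastQC, STAR and DESeq2 with the build hg38, per the submitters' processing notes, in which versions are missing. The sources used here do not give counting tool, use of strand or annotation release. Each of the 4 tables holds the authors' own comparison. Its signal column is, per the file headers, the mean of counts normalized by the authors. The log2 fold change with its error, the Wald score, the p-value and its adjusted form are as deposited by the authors. Depth per library is unknown, so no library-level fit, SD, interval or replicate check was possible, and the planned count models were replaced by the tests described here.

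The deposited errors have a ceiling in each table, the mark of a normal prior on fold changes. Its precision was set to the inverse square of 2 times the largest error, and the equations for shrunken change and error were solved per gene, taking the smaller-error solution for genes whose mean exceeds that at the peak of the error's running median (501 genes). Differences between lines used a two-sided Wald test on these prior-removed values with Benjamini-Hochberg adjustment over the 8969 genes whose mean reached 100 in every table. Genes were called at an adjusted p under 0.05. Coordinates and overlaps are from GENCODE release 29, promoters from RefSeq. Python 3.11.15, pandas 2.3.3, numpy 2.4.6 and scipy 1.17.1 were used.

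Members and lists were chosen with earlier results of these data known. Named were all mitochondrial members, isoform pairs and complex II genes, and per line and complex or list the called gene with the largest rise and fall; POLRMT, PTPRC and genes singled out for their pattern across lines were named after their values were seen. Some cell type markers that this rule names are not reported here. Alternatives were a stricter threshold, adjustment over every gene with a p, recentring on the median, genes with a mean of at least 100 only, another minimum mean, deposited in place of prior-removed values, and single lines in the contrasts.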

Additional observations from a re-analysis of the deposited data

Results flagged for a closer look

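The results in this section were picked out because the effect of GSK-J4 differed between lines in a test of the difference itself, on prior-removed log2 changes with the Wald test and Benjamini-Hochberg adjustment over all genes tested.

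For SK-N-FI minus the mean of LAN5 and IMR5, every mitochondrial transcript was picked out. The differences were -0.82 for MT-ND1, -1.34 for MT-ND2, -1.43 for MT-CO1, -1.39 for MT-CO2, -0.95 for MT-ATP8, -0.996 for MT-ATP6 and -1.39 for MT-CO3. They were -0.92 for MT-ND3, -1.80 for MT-ND4L, -1.55 for MT-ND4, -1.22 for MT-ND5, -0.51 for MT-ND6 and -1.61 for MT-CYB. Against LAN5 alone the difference of MT-ND6 had the other sign and was not called (0.37). The rRNAs had positive differences, 1.05 for MT-RNR1 and 1.38 for MT-RNR2. Among nuclear members, ATP5D (1.19) and NDUFV3 (-0.56) had the highest and lowest differences.

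For the sensitive lines minus SK-N-BE(2), the lowest and highest nuclear differences were those of UQCR11 (-1.03) and COX7A2L (0.68). For LAN5 minus IMR5 they were those of UQCRC1 (-1.02) and UQCR11 (1.22). UQCR11 overlaps a gene on the same strand, and the part of that overlap in its values was not tested.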

How the results depend on the processing

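No paired analysis was possible because the tables carry no values of single libraries, and leaving out a replicate, another normalization and another count test were not run for the same reason. Counts of called members within each line kept within 1.5 times of those reported for the mitochondrial mRNAs and for the nuclear subunits as a whole, in each direction and under every alternative run. Counts of differences moved more. Nuclear members called higher in SK-N-FI minus the mean of LAN5 and IMR5, 16 in the comparison reported, numbered 10 at an adjusted p under 0.01, 30 against LAN5 alone and 10 against IMR5 alone, and those called lower, 1 as reported, numbered 4 against IMR5 alone. In the sensitive lines minus SK-N-BE(2), nuclear members called lower, 25 as reported, numbered 13 at an adjusted p under 0.01 and 4 for SK-N-FI alone. Those called higher, 6 as reported, numbered 2 for LAN5 alone, 10 for IMR5 alone and 12 for SK-N-FI alone. Mitochondrial mRNAs called higher in that contrast, 0 as reported, numbered 1 for LAN5 alone and 2 for IMR5 alone. In LAN5 minus IMR5 the 1 called higher was not called at an adjusted p under 0.01, leaving 0. The contrasts with single lines were chosen after seeing the data, and their counts are given without a share of all genes. The cause of these shifts was not tested. MT-RNR2 in IMR5 was not called at 0.01 or when p-values were adjusted over every gene with a p. The median log2 change of genes with a mean of at least 100 was within 0.1 of 0 in each line.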
